A study of Mus musculus with 24 samples.

Results

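The Hox cluster genes were examined in mRNA sequencing of HL-1 cells, a mouse line derived from cardiomyocytes. They were taken as every row of the count table whose symbol was Hox followed by a cluster letter from a to d and a paralogue number, which gave 37 genes of 20351. The libraries fell into 4 groups of 6. MuRF1 KD stretched cells carried an adenovirus with a short hairpin RNA against MuRF1, the muscle ubiquitin ligase encoded by Trim63, and were stretched cyclically (15%, 1 Hz) for 60 min. MuRF1 KD non-stretched cells carried the same virus and had no stretch. Control stretched and control non-stretched cells carried an adenovirus with a scrambled hairpin. All groups thus carried a virus, given at 30 infectious units per cell 48 h before the stretch, and all were moved from complete Claycomb medium to serum-free DMEM. One label field gives the stretch as uniaxial and another as biaxial. The series title states the question, namely how far MuRF1 shapes what stretch does to gene expression in cardiomyocytes.

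Hox genes encode homeodomain transcription factors that give cells their position along the body axis. In mammals they lie in separate clusters that arose by duplication, and genes of the same number in different clusters are paralogues. Within a cluster all genes point the same way. Low-numbered genes sit at the 3′ end and act in anterior structures, and high-numbered genes sit at the 5′ end and act in posterior structures and the limb ends. Their chromatin is held silent by Polycomb complexes and kept open by the MLL (trithorax) methyltransferases, and retinoic acid induces the 3′ genes in the embryo. In the developing heart, anterior Hox genes such as Hoxb1 mark progenitors of the outflow tract and atria.

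The knockdown and the cell type were checked first. Trim63 stood at 68.5 ± 7.92 CPM in MuRF1 KD stretched, 55.7 ± 1.17 in MuRF1 KD non-stretched, 781 ± 81.7 in control stretched and 640 ± 68.1 in control non-stretched cells (SD, n = 6 each). CPM are counts relative to the library's total after TMM scaling. Libraries held 23.6 to 54.8 M estimated counts, so that the 3 counts taken as a detection floor were worth 0.0548 to 0.127 CPM. Such floors cover counting error only. Of 14 cardiomyocyte markers all passed the count filter, but Nppa, the atrial natriuretic peptide gene, stayed under 1 CPM in the mean. Control stretched replicate 5, the shallowest library, stood apart at 54.7 on the second principal component, against -14.9 to 13.2 for the others. No label states that the 6 samples of a group were grown separately, so the p-values here rest on a spread between samples that may be technical alone. A code number in the labels was the same within a group and differed between groups, so a batch marked by it and the group cannot be told apart.

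Of the 37 Hox genes, 12 were expressed, and 9 of these lay in the Hoxa cluster. A gene counts as expressed where it passed edgeR's filter on low counts over all 24 libraries (minimum count 10). The Hoxa cluster on chromosome 6 (minus strand, GRCm38) had 9 of its 11 genes expressed, among them Hoxa2, Hoxa3, Hoxa5, Hoxa6, Hoxa7, Hoxa9, Hoxa10 and Hoxa13. It gave 91.4% of all Hox counts. Each of the other clusters had 1 expressed gene. This was Hoxb1 of 9 on chromosome 11, Hoxc4 of 9 on chromosome 15 and Hoxd4 of 8 on chromosome 2, and the clusters gave 2.21%, 3.43% and 2.94% of Hox counts. Hoxb7 and Hoxd13 were not analysed here.

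**Figure D1:**
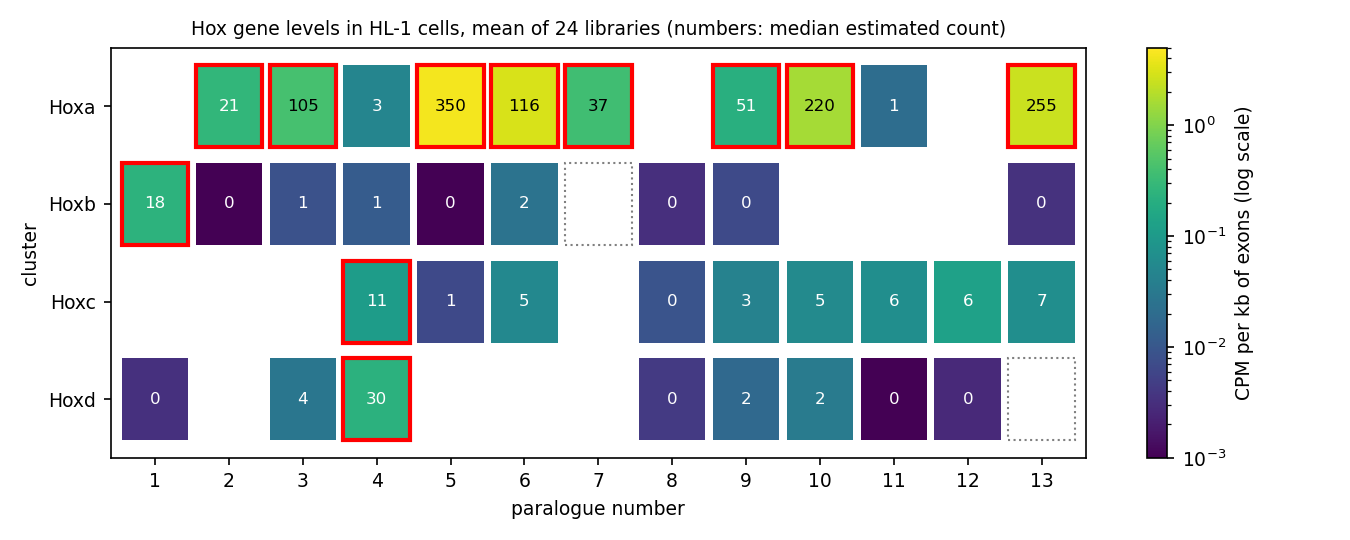
Mean level of the Hox genes reported here over 24 libraries, by cluster (rows) and paralogue number (columns), coloured by CPM per kilobase of exons on a log scale, with the median estimated count written in each box. Red frames mark expressed genes, most of them in the Hoxa row, and dotted boxes mark the genes not analysed here.

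Within the Hoxa cluster 2 genes were near 0. Hoxa4 had a median of 3.0 counts and a maximum of 6.0, and Hoxa11 a median of 0.784 and a maximum of 6.62, while the genes on both sides of each were expressed. Elsewhere the pattern was the reverse, with single expressed genes among genes near 0. In the Hoxb cluster, Hoxb2, Hoxb5, Hoxb8, Hoxb9 and Hoxb13 had medians of 0.0 counts, and Hoxb3, Hoxb4 and Hoxb6 had medians of 1.25, 1.00 and 2.00. In the Hoxd cluster, Hoxd1, Hoxd8, Hoxd11 and Hoxd12 had medians of 0.0 counts, and Hoxd9, Hoxd10 and Hoxd3 had medians of 1.5, 2.0 and 4.01. The Hoxc cluster differed in kind. Its 5′ genes Hoxc10, Hoxc11, Hoxc12 and Hoxc13, and also Hoxc6, had at least 1 count in every library, with medians of 5.0 to 7.0, while Hoxc5, Hoxc8 and Hoxc9 had medians of 1.00, 0.0 and 3.49. By counts, which the filter uses and which also depend on gene length, the lowest expressed gene was Hoxc4, with a median of 11.4. The highest gene outside the filter was Hoxc13, with 7.0. In all, 17 of the 25 genes outside the filter had a median over all libraries under the floor of 3 counts. The count of expressed genes depends on where the line is drawn. With a mean of at least 1 CPM required, 7 genes remained (Hoxa3, Hoxa5, Hoxa6, Hoxa7, Hoxa9, Hoxa10 and Hoxa13), and all 7 lay in the Hoxa cluster.

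Between genes, levels are given only as CPM per kilobase of annotated exons (GENCODE vM21). On this scale Hoxa5, known from mouse lung and airway development, was the highest Hox gene, at a mean of 4.36 over all libraries. Hoxa6 and Hoxa13 followed at 2.98 and 2.53, and Hoxa10 at 1.58. Hoxa13 acts in the limb ends and the urogenital tract and Hoxa10 in the uterus of mice. Further expressed genes were at 0.402 (Hoxa3), 0.366 (Hoxa7), 0.274 (Hoxa2), 0.238 (Hoxb1), 0.228 (Hoxd4), 0.218 (Hoxa9) and 0.106 (Hoxc4). Hoxa5 exceeded Hoxa6 in every library, and exceeded Hoxa13 in every library but 1 of the control non-stretched group. Hoxa6 and Hoxa13 both exceeded Hoxa10 in every library, and Hoxa10 exceeded Hoxa3 in every library. Hoxc4 was the lowest of the expressed genes, and Hoxa9 exceeded it in 23 of 24 libraries. Hoxc12, outside the filter and with only 1031 bases of exons, stood above Hoxc4, at 0.127. Per kilobase of the longest coding transcript Hoxc4 was at 0.129 and Hoxc12 at 0.127. From Hoxa3 down to Hoxa9, neighbours in the order were not firmly placed. There the gene with the higher mean led the next one listed in 9 of 24 libraries (Hoxb1 over Hoxd4) to 18 of 24 (Hoxa2 over Hoxb1). Some pairs farther apart were, since Hoxa3 exceeded both Hoxd4 and Hoxa9 in all 24 libraries. Others were not, with Hoxa2 over Hoxd4 in 16 of 24 and Hoxb1 over Hoxa9 in 8 of 24.

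Lengths limit this order. Hoxa6 has a single annotated transcript of 874 bases, the shortest of the expressed Hox genes, so its rank rests on that length. Hoxa3 has 6014 bases of exons but a longest coding transcript of 2591, and on that shorter length it stood at 0.932, against 0.402 on all exons. Hoxa9 likewise has 5580 bases of exons and a longest coding transcript of 3226. On the latter it stood at 0.377, above Hoxa2, Hoxb1 and Hoxd4 on theirs. Hoxd4 shares 52.3% of its exon bases with annotated transcripts of Hoxd3 and Gm28230, so reads of Hoxd3 and Hoxd4 cannot be divided with certainty.

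The knockdown of MuRF1 went with higher Hoxa5 and Hoxa6, neighbours in the middle of the cluster, and with lower Hoxa13 at its 5′ end. These 3 differences passed the test both without and with stretch, and in each the ranges of the 6 knockdown and 6 control libraries did not overlap. Over all 14411 genes, 57.8% passed without and 52.0% with stretch, and 37.7% and 31.9% had ranges apart. Hoxa7, the next number in the cluster, was also higher in knockdown cells without stretch. Hoxa2 and Hoxa3, nearer the 3′ end, did not pass the test in either knockdown comparison. Both knockdown comparisons and both stretch comparisons draw on the same 4 groups, so that they are not independent of one another.

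The bases just upstream of these 3 genes are shown because the genes moved in different directions within 1 cluster. They are from RefSeq (GRCm38.p6), minus strand, written 5′ to 3′ and ending at the annotated start, and capitals mark matches to the motifs searched. The windows are chr6:52204588-52204837 (Hoxa5, 250 bases), chr6:52208723-52208922 (Hoxa6, 200 bases, cut where GENCODE places its transcript) and chr6:52260881-52261130 (Hoxa13, 250 bases).
Hoxa5: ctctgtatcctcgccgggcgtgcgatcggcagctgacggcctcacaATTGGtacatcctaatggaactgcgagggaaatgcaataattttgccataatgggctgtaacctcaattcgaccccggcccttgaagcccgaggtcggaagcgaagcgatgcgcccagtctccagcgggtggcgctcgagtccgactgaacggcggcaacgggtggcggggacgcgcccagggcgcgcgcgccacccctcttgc
Hoxa6: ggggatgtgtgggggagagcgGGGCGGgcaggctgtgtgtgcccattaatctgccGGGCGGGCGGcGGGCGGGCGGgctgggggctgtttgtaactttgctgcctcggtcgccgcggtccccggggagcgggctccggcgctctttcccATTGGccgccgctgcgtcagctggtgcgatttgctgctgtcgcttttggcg
Hoxa13: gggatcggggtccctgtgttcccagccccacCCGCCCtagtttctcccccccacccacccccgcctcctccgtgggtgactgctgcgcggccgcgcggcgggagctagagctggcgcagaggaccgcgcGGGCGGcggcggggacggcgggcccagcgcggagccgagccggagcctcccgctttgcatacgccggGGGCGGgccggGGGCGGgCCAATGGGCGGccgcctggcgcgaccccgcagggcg

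The 3 windows shared a CCAAT box and differed in GC content. Both strands were searched for the TATA box with the letters TATAAA, the GC box with GGGCGG, the CCAAT box as its name spells it, a motif of HOX-PBX dimers with TGATTNAT, the nuclear receptor half-site with AGGTCA, the AP-1 motif with TGANTCA, and the CArG box. Hoxa5 held 1 CCAAT box and no GC box, at 63.6% GC. Hoxa6 and Hoxa13 each held 1 CCAAT box and 5 GC boxes, some of them overlapping in Hoxa6, at 71.0% and 80.0% GC. In Hoxa13 the last GC box adjoins the CCAAT box. Of 32851 RefSeq promoters of 250 bases, 33.8% held the CCAAT box, 32.7% the GC box, 14.0% the half-site, 12.4% the TATA box, 6.75% the AP-1 motif, 2.82% the HOX-PBX motif and 1.47% the CArG box. The table held 12 promoters of expressed Hox genes and 12 of other Hox genes, of which 7 and 7 held the CCAAT box and 5 and 5 the GC box. Each set covered 11 genes, and the other set included Hoxd13, whose expression was not analysed here. Median GC content was 59.2% and 56.8%, against 52.4% over all promoters.

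Hoxa5 (ENSMUSG00000038253, chr6:52201754-52204587) was the highest and the most precisely measured of the Hox genes. Without stretch its lowest, median and highest levels were 8.85, 9.65 and 10.4 CPM in MuRF1 KD cells, against 6.58, 6.73 and 7.38 CPM in control cells. With stretch they were 8.89, 9.43 and 10.1 CPM in MuRF1 KD cells, against 6.23, 6.56 and 7.27 CPM in control cells. Every knockdown library lay above every control library in both conditions. The log2 fold change without stretch was 0.51 (SE 0.0518, adjusted p = 2.55e-09). With stretch it was 0.52 (SE 0.0524, adjusted p = 2.69e-09). Both are from edgeR's quasi-likelihood test with Benjamini-Hochberg adjustment over 14411 genes.

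Hoxa6 (ENSMUSG00000043219, chr6:52206288-52208722) rose by a like amount. Its lowest, median and highest levels without stretch were 2.78, 3.25 and 3.58 CPM in MuRF1 KD cells, against 1.83, 2.00 and 2.56 CPM in control cells. With stretch they were 2.59, 3.10 and 3.23 CPM in MuRF1 KD cells, against 1.89, 2.05 and 2.30 CPM in control cells. The groups did not overlap. In the same test the log2 fold change was 0.60 without stretch (SE 0.0923, adjusted p = 3.13e-06). With stretch the value was 0.52 (SE 0.0936, adjusted p = 3.33e-05).

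Hoxa13 (ENSMUSG00000038203, chr6:52257694-52260880) fell. Without stretch it stood at 4.88, 5.55 and 5.99 CPM (lowest, median, highest) in MuRF1 KD cells, against 7.21, 7.62 and 8.84 CPM in control cells. With stretch it stood at 4.63, 5.16 and 5.64 CPM in MuRF1 KD cells, against 6.08, 6.63 and 7.86 CPM in control cells. No knockdown library reached the lowest control library. Its log2 fold change without stretch was -0.51 (SE 0.0692, adjusted p = 4.28e-07). The value with stretch was -0.38 (SE 0.0704, adjusted p = 4.90e-05).

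**Figure D2:**
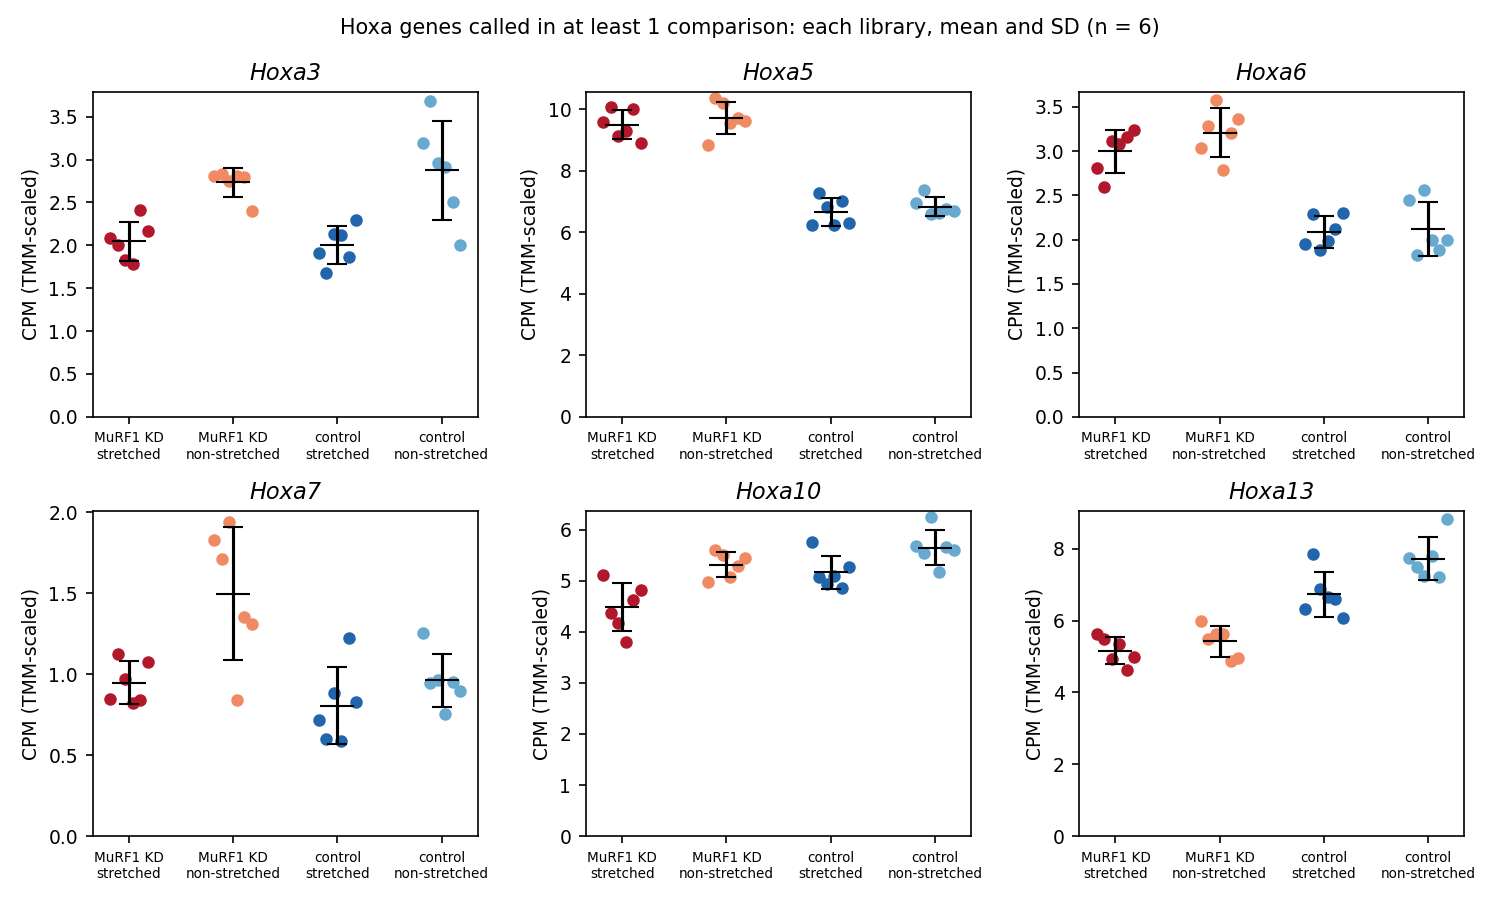
Levels of 6 Hoxa genes in each library (points, CPM after TMM scaling, axes from 0), with the mean and SD of each group of 6 (bars). Hoxa5 and Hoxa6 are higher and Hoxa13 lower in MuRF1 KD than in control libraries with no overlap, while Hoxa3 and Hoxa10 sit lower in stretched than in non-stretched groups with overlapping points.

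Hoxa6 and Hoxa13 differed in order between the groups. The ratio of their CPM per kilobase was 1.66 ± 0.239 in MuRF1 KD stretched and 1.68 ± 0.222 in MuRF1 KD non-stretched cells, against 0.883 ± 0.103 in control stretched and 0.781 ± 0.137 in control non-stretched cells (SD, n = 6 each). Hoxa6 exceeded Hoxa13 in 6 of 6 and 6 of 6 knockdown libraries, and in 1 of 6 stretched and 0 of 6 non-stretched control libraries. Whether a ratio lies above or below 1 depends on the annotated lengths, whereas the fold difference in the ratio between groups does not. The turn restates the rise of Hoxa6 and the fall of Hoxa13 given above. The summed level of the Hoxa cluster moved less, at 28.0 ± 1.01 CPM in MuRF1 KD stretched, 30.9 ± 1.24 in MuRF1 KD non-stretched, 26.1 ± 1.01 in control stretched and 28.8 ± 1.09 in control non-stretched cells (SD, n = 6 each).

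Hoxa7 and Hoxa10 each passed the test in 1 of the knockdown comparisons. Hoxa7, which acts in the trunk skeleton of mice, ranged over 0.841, 1.53 and 1.94 CPM (lowest, median, highest) in MuRF1 KD non-stretched cells, against 0.756, 0.950 and 1.26 CPM in control non-stretched cells. Its log2 fold change was 0.63 (SE 0.182, adjusted p = 0.00440), and the groups overlapped through 1 low knockdown library. With stretch Hoxa7 was at 0.28 (SE 0.195, adjusted p = 0.248) and did not pass. Hoxa10 ranged over 3.81, 4.50 and 5.10 CPM in MuRF1 KD stretched cells, against 4.86, 5.09 and 5.76 CPM in control stretched cells. Its log2 fold change was -0.21 (SE 0.0671, adjusted p = 0.0105), with overlapping groups. That call was lost when libraries were scaled by their totals alone, at -0.09 (adjusted p = 0.258).

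In each knockdown comparison 4 of the 12 tested Hox genes passed, below the share of all genes. Without stretch 3 rose and 1 fell, against 57.8% of all 14411 genes called, 28.0% higher and 29.7% lower. With stretch 2 rose and 2 fell, against 52.0% called, 25.1% higher and 26.9% lower. Ranges did not overlap for 3 Hox genes in each comparison, against 37.7% of all genes without stretch and 31.9% with stretch. The median log2 fold change of the 12 genes was 0.16 without stretch, against 0.01 over all genes, and 0.15 with stretch, against 0.00. Scaling by library totals alone shifted the median of all genes by 0.13 without and 0.11 with stretch on the log2 scale. Under it 6818 genes were called higher and 2635 lower without stretch, where TMM gave 4040 and 4285, and with stretch 6347 were higher and 2401 lower, where TMM gave 3619 and 3875. The directions of Hoxa5, Hoxa6 and Hoxa13 held and passed the test under each of the 13 alternative settings.

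Of the Hox genes that did not pass, those at low counts were the least certain. Hoxb1, active in the hindbrain, varied widely between libraries. Its lowest, median and highest levels without stretch were 0.353, 0.479 and 1.60 CPM in MuRF1 KD cells, against 0.162, 0.242 and 0.593 CPM in control cells. The log2 fold change was 1.25 (95% interval 0.12 to 2.39, adjusted p = 0.0521), and single libraries set the upper end in both groups. The log2 fold changes of Hoxa2, Hoxa3, Hoxa9, Hoxa10, Hoxc4 and Hoxd4 without stretch lay between -0.20 (Hoxd4) and 0.25 (Hoxa9). With stretch those that did not pass lay between -0.30 (Hoxc4) and 0.41 (Hoxb1). Their 95% intervals differed in width, with -0.22 to 0.27 for Hoxa3 and -1.10 to 0.50 for Hoxc4. For Hoxc4 a fall as large as the rise of Hoxa5 could thus not be told from none.

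**Figure D3:**
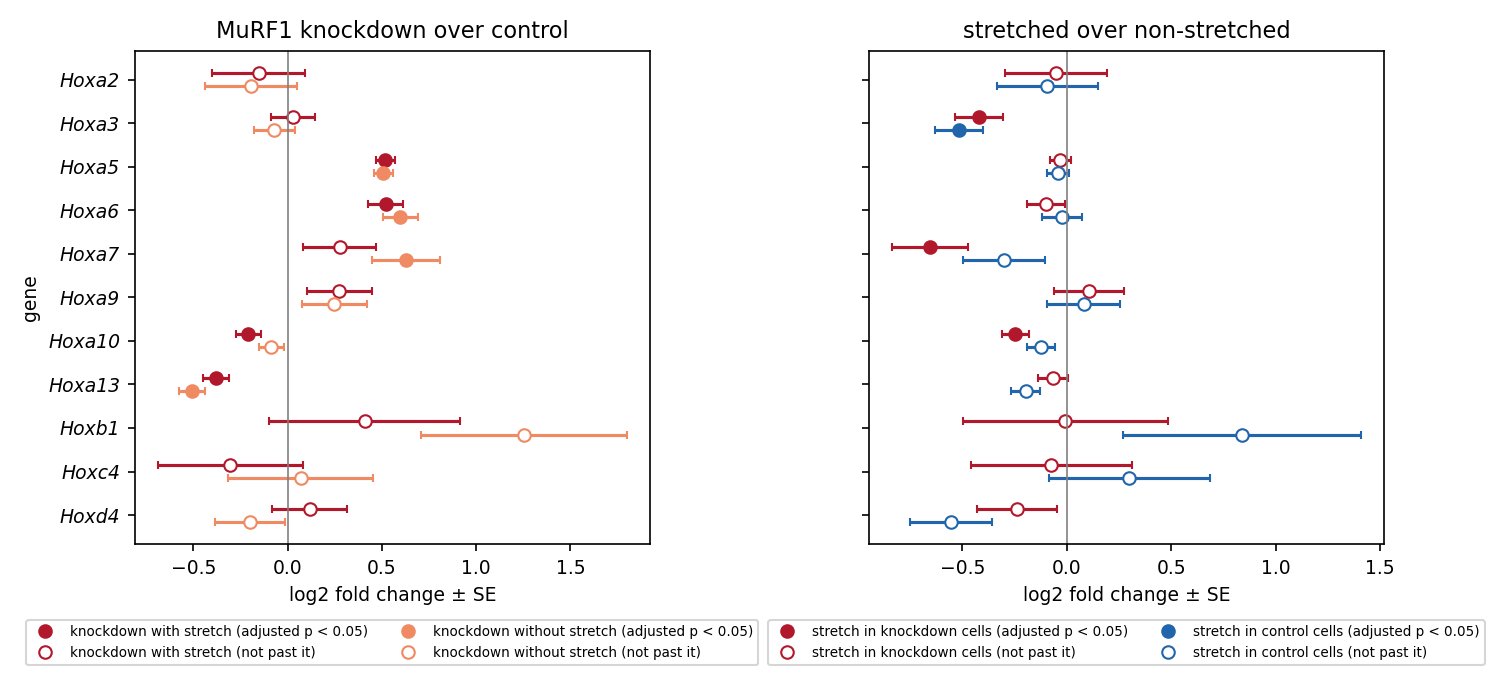
Log2 fold change ± SE of expressed Hox genes for MuRF1 knockdown over control (left, with and without stretch) and for stretched over non-stretched cells (right, knockdown and control cells), from edgeR. Filled points passed the adjusted p threshold of 0.05. On the left Hoxa5, Hoxa6 and Hoxa13 are filled in both conditions, and on the right Hoxa3 is filled in both kinds of cell.

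Genes beside the Hoxa cluster did not follow its middle genes. Skap2, an adaptor protein gene 143.0 kb beyond the 3′ end of the cluster, was lower in knockdown cells, with log2 fold changes of -0.52 without and -0.48 with stretch (adjusted p = 5.96e-11 and 3.14e-10). Beyond it, Snx10 and Cbx3 did not pass, at 0.07 and -0.08 without stretch. On the Hoxa13 side, Evx1, the homeobox gene next to the cluster, had at most 2.0 counts in any library. Hibadh was at -0.08 without stretch (adjusted p = 0.0569) and -0.11 with stretch (adjusted p = 0.00889), and Tax1bp1 was at -0.34 and -0.33 (adjusted p = 2.07e-08 and 3.71e-08). Over the 24 genes flanking the 4 clusters, 3 on each side, 19 were tested, of which 0 rose and 9 fell without stretch, and 1 rose and 11 fell with stretch. These were 47.4% and 63.2% of them, against 57.8% and 52.0% of all genes. Beside the other clusters, Atp5g1, Atf7, Calcoco1, Cbx5, Hnrnpa1, Smug1 and Atp5g3 fell in both, at -0.43 (Atp5g3) to -0.09 (Smug1) without stretch. In stretched cells Atp5g2 also fell (-0.31) and Hnrnpa3 rose (0.13), and neither passed the test of the difference from non-stretched cells (interaction adjusted p = 0.834 and 0.907). Cbx1, Snx11, Lnpk, Mtx2 and Nfe2l2 did not pass in either, and Calcoco2, Ttll6, Skap1 and Evx2 had at most 5.0 counts.

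**Figure D4:**
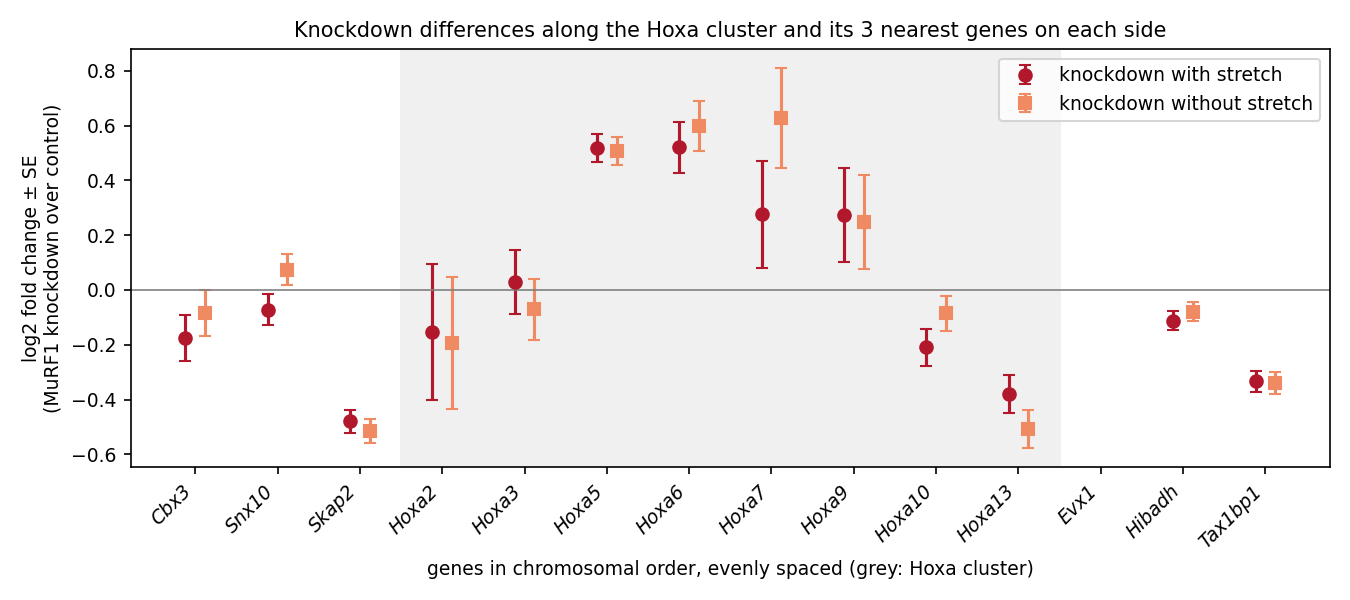
Log2 fold change ± SE of MuRF1 knockdown over control, with stretch (circles) and without stretch (squares), for expressed Hoxa genes (grey band) and the 3 nearest genes of the table on each side, in chromosomal order with even spacing. Hoxa5, Hoxa6, Hoxa7 and Hoxa9 lie above 0, though Hoxa9, and Hoxa7 with stretch, did not pass the test. Hoxa13 lies below 0, as do Skap2 and Tax1bp1 outside the cluster, while Evx1 was too low to be tested.

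Cell type markers moved with the knockdown as well. The summed level of the 14 cardiomyocyte markers ran from 1231 to 1422 CPM in MuRF1 KD libraries, against 2379 to 2946 CPM in control libraries. Of the 14, 12 fell and 1 rose in each knockdown comparison. Beside this and the marker counts that follow, 57.8% of all genes were called without stretch and 52.0% with it. Tnnt2, cardiac troponin T, made up much of the sum, at 513 CPM in MuRF1 KD and 1250 CPM in control cells without stretch. The gene that rose was Nkx2-5, a cardiac homeodomain factor, at 88.7 CPM in MuRF1 KD and 74.4 CPM in control cells without stretch (log2 fold change 0.25, adjusted p = 4.20e-06). The 8 fibroblast markers summed to 80.0 to 101 CPM, against 216 to 250 CPM, with Lum and Tcf21 at no more than 0.109 and 0.0409 CPM in any library. Most of it was the collagen genes Col1a1 and Col3a1. Without stretch these stood at 54.9 and 27.1 CPM in MuRF1 KD and 145 and 88.7 CPM in control cells. Of the 6 fibroblast markers tested 5 fell in each knockdown comparison. Pdgfra did not pass in either (log2 fold change -0.11 without and 0.08 with stretch). The 5 smooth muscle markers summed to 1696 to 1914 CPM, against 2459 to 2833 CPM. Most of that sum was Acta2, smooth muscle actin, at 1523 CPM in MuRF1 KD and 2280 CPM in control cells without stretch, and 3 of the 5 fell in each knockdown comparison. Cnn1 did not pass in either (log2 fold change 0.07 without and 0.00 with stretch), and Myh11 rose with stretch (0.59, adjusted p = 0.0109) and was at 0.24 without it (adjusted p = 0.273). The 6 endothelial markers summed to 7.11 to 9.07 CPM, against 8.75 to 10.2 CPM, with Cdh5 at no more than 0.0927 CPM. The 6 skeletal muscle markers summed to 3.36 to 5.70 CPM, against 3.94 to 7.66 CPM, with Myod1 and Pax7 at no more than 0.0253 and 0.0251 CPM. Leukocyte markers (5 of 6 in the table) summed to 1.83 to 3.68 CPM, against 1.41 to 3.29 CPM, and the 5 epithelial markers to 7.77 to 10.6 CPM, against 6.97 to 10.4 CPM. Pooled over stretch, the ranges of the cardiomyocyte, fibroblast and smooth muscle sums did not overlap between knockdown and control libraries. Those of the other sums did. Without stretch the endothelial (7.11 to 9.07 against 9.2 to 10.1 CPM) and leukocyte sums (1.83 to 2.72 against 1.41 to 1.81 CPM) were apart. With stretch the endothelial sums were apart (7.56 to 8.19 against 8.75 to 10.2 CPM). Among single genes, 37.7% of all tested had ranges apart without stretch and 31.9% with it. In each knockdown comparison 1 of 3 tested endothelial and 1 of 1 skeletal muscle markers fell, and 1 of 2 epithelial markers rose. Of 2 leukocyte markers 2 rose without stretch and 1 with it. The part of these shifts in the Hox differences was not tested, and in bulk samples fewer cells of a type and less RNA per cell cannot be told apart.

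Stretch lowered Hoxa3 in both kinds of cell. Hoxa3 (ENSMUSG00000079560, chr6:52169062-52213336), needed for the thymus and parathyroid in mice, has a long transcript unit that spans Hoxa4, Hoxa5 and Hoxa6. In MuRF1 KD cells its lowest, median and highest levels were 1.79, 2.04 and 2.41 CPM with stretch, against 2.40, 2.80 and 2.83 CPM without. In control cells they were 1.68, 2.01 and 2.30 CPM with stretch, against 2.01, 2.94 and 3.69 CPM without. In both pairs the groups overlapped by 1 library at the bottom of the non-stretched group. The log2 fold changes were -0.42 in MuRF1 KD cells (SE 0.114, adjusted p = 0.0186) and -0.52 in control cells (SE 0.115, adjusted p = 0.00751).

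The Hoxa3 difference in control cells depended on the fit. It did not pass when only the 2 groups compared were fitted (-0.51, adjusted p = 0.0594), and it passed without control stretched replicate 5 (-0.50, adjusted p = 0.00568). The gene overlaps the antisense transcripts Hoxaas2 and Hoxaas3 and the coding gene 5730596B20Rik, and it shares 8.01% of its exon bases with Gm28308 on the same strand. Whether the counting used strand is not given in the sources used here, so reads from these overlapping genes may not be told apart. 5730596B20Rik itself had 6.0 to 21.0 counts and was at -0.60 in MuRF1 KD cells (adjusted p = 0.275) and -0.42 in control cells (adjusted p = 0.493).

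In MuRF1 KD cells stretch also lowered Hoxa7 and Hoxa10. Hoxa7 stood at 0.821, 0.910 and 1.13 CPM in stretched cells, against 0.841, 1.53 and 1.94 CPM in non-stretched cells, which is -0.65 on the log2 scale (SE 0.182, adjusted p = 0.0226). Hoxa10 stood at 3.81, 4.50 and 5.10 CPM in stretched cells, against 4.97, 5.37 and 5.61 CPM in non-stretched cells, or -0.25 on the log2 scale (SE 0.0665, adjusted p = 0.0187). The groups overlapped in both genes. In control cells Hoxa7 was at -0.30 (adjusted p = 0.394) and Hoxa10 at -0.12 (adjusted p = 0.289), neither past the threshold.

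Stretch called 3 of 12 Hox genes in MuRF1 KD cells, all lower, against 8.93% of all genes called, 5.32% higher and 3.61% lower. In control cells it called 1 of 12, against 5.95% called, 2.55% higher and 3.39% lower. Without control stretched replicate 5 the count over all genes in control cells was 2023, against 857 with it, and the Hox count stayed at 1. Ranges did not overlap for 0 Hox genes in either comparison, against 5.44% of all genes in MuRF1 KD cells and 3.19% in control cells. The median log2 fold change of the 12 genes was -0.09 in MuRF1 KD cells, against -0.01 over all genes, and -0.09 in control cells, against -0.01. In MuRF1 KD cells Hoxd4 was at -0.24 and Hoxa9 at 0.11, neither past the threshold. In control cells the log2 fold changes of the genes that did not pass lay between -0.56 (Hoxd4, adjusted p = 0.0882) and 0.84 (Hoxb1, adjusted p = 0.427), and the smallest adjusted p was that of Hoxa13 (-0.20, 0.0858). Hoxa5 and Hoxa6 were at -0.03 and -0.10 with stretch in MuRF1 KD cells and at -0.04 and -0.02 in control cells. For Hoxa5 the 95% intervals ran from -0.14 to 0.07 and from -0.16 to 0.07.

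No Hox gene passed the test of a difference between the stretch responses of MuRF1 KD and control cells. The interaction term called 0 of 12 Hox genes with edgeR and 0 with DESeq2, and 0 had an unadjusted p under 0.05, against 3 of 14411 genes called, or 0.0208%. The smallest adjusted p was that of Hoxa7, with a difference of -0.35 between both stretch responses (SE 0.267, adjusted p = 0.727). That of Hoxa10 was -0.12 (SE 0.0938, adjusted p = 0.728). The calls of Hoxa7 and Hoxa10 in knockdown cells alone are therefore not shown to differ from control cells.

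Partners and regulators of Hox genes were read from lists. Of 9 Hox cofactors, the TALE homeodomain proteins that bind DNA with Hox proteins, 1 rose and 5 fell with the knockdown, both without and with stretch, with median log2 fold changes of -0.28 and -0.23. The share called was 66.7% in each, against 57.8% of all genes without and 52.0% with stretch. Meis1 averaged 40.5 CPM in MuRF1 KD and 59.6 CPM in control cells without stretch (log2 fold change -0.56, SE 0.0379, adjusted p = 6.46e-13) and was at -0.48 with stretch. With stretch 3 cofactors rose in MuRF1 KD cells, among them Meis2 (0.16, adjusted p = 0.000207) and Meis1 (0.16, adjusted p = 0.00864), and 1 rose in control cells, Meis2 (0.10, adjusted p = 0.0267). Over all genes stretch called 8.93% in MuRF1 KD cells and 5.95% in control cells. Of 6 ParaHox genes, the sister cluster of the Hox genes, 2 were in the table and 0 could be tested.

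Chromatin regulators of the clusters moved in both directions with the knockdown. Of 32 Polycomb genes 9 rose and 8 fell without stretch, and 10 rose and 5 fell with stretch, with medians of 0.02 and 0.00. The shares called, 53.1% and 46.9%, lay near those of all genes (57.8% and 52.0%). Pcgf2, a subunit of Polycomb complexes of the PRC1 type, fell by 0.40 without stretch (adjusted p = 1.07e-10) and by 0.29 with stretch (adjusted p = 7.05e-08) on the log2 scale. Rbbp4, a histone-binding protein of PRC2 and other complexes, fell by 0.26 without stretch (adjusted p = 5.80e-09), and Pcgf6, another PRC1 subunit, rose by 0.34 with stretch (adjusted p = 6.01e-08). Stretch lowered 1 Polycomb gene in MuRF1 KD cells, Pcgf1 (-0.19, adjusted p = 0.0110), and 4 in control cells, led by Ezh1 (-0.17, adjusted p = 0.00863) and Bcor (-0.13, adjusted p = 0.0156). These were 3.1% and 12.5% of the list, against 8.93% and 5.95% of all genes called by stretch.

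Of 20 genes of the MLL methyltransferases and their partners, 3 rose and 3 fell with the knockdown without stretch, and 5 rose and 1 fell with stretch, with medians of -0.02 and 0.05. The share called was 30.0% in each, below the 57.8% and 52.0% of all genes. Mllt3, a subunit of the super elongation complex, averaged 21.1 CPM in MuRF1 KD and 14.4 CPM in control cells without stretch, a log2 fold change of 0.55 (adjusted p = 1.46e-10), and was at 0.48 with stretch (adjusted p = 3.14e-09). Ash2l, a core subunit of MLL complexes, was at -0.14 without stretch (adjusted p = 0.000110), and Rbbp5, another core subunit, at 0.12 with stretch (adjusted p = 0.000967). Stretch raised 2 of the 20 in MuRF1 KD cells, Kmt2c (0.12, adjusted p = 0.0196) and Aff4 (0.10, adjusted p = 0.0446), and called 0 in control cells. The share in MuRF1 KD cells, 10.0%, lay near the 8.93% of all genes, and in control cells stretch called 5.95% of all genes. Of 8 CTCF and cohesin genes, which shape chromatin loops, 1 rose and 2 fell in each knockdown comparison, or 37.5%, also below those shares. Smc1a was at -0.20 without and -0.15 with stretch, and Rad21 at -0.23 and -0.16 (adjusted p from 1.99e-07 to 0.000130). Stretch called 0 of the 8 in either kind of cell.

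The retinoic acid genes held the largest changes of the named partners. Of 18 such genes 14 were tested, of which 5 rose and 6 fell with the knockdown, both without and with stretch, with medians of -0.12 and 0.08. The share called was 78.6% in each, against 57.8% and 52.0% of all genes. Aldh1a1, which makes retinoic acid, averaged 33.8 CPM in MuRF1 KD and 76.3 CPM in control cells without stretch (-1.17, SE 0.0441, adjusted p = 2.14e-18), and was at -1.13 with stretch. Cyp26b1, which degrades retinoic acid, averaged 7.10 CPM in MuRF1 KD and 3.49 CPM in control cells without stretch (1.03, SE 0.0760, adjusted p = 4.20e-12), and was at 1.07 with stretch. Stretch called 0 retinoic acid genes in MuRF1 KD cells and lowered 2 in control cells, Rara (-0.16, adjusted p = 0.0355) and Rxrb (-0.10, adjusted p = 0.0412), which encode a retinoic acid receptor and its partner. The shares were 0.0% and 14.3%, against 8.93% and 5.95% of all genes.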

How the data were processed

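The authors deposited estimated counts per gene for 20351 protein-coding genes in 24 libraries, of which 36.6% of values were whole within 1e-09. Per the submitters' processing notes, the build was GRCm38.p6 and the tools included R 3.4.4, DESeq2 1.18.1 and kallisto 0.44.0. Neither an annotation release nor the step from transcripts to genes is given in the sources used here. The authors' normalized signal, also deposited, served only as an alternative scaling. Per the labels' protocols, the library kit captured poly(A) RNA and kept strand.

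Counts were rounded and tested with edgeR 4.0.16 (R 4.3.3, TMM, filterByExpr with minimum count 10 and minimum total 15, robust quasi-likelihood, 1 coefficient per group, 20 residual degrees of freedom). Benjamini-Hochberg adjustment covered all 14411 tested genes at 0.05. SEs are the absolute log2 fold change over the root of F. No set test was run. Lists are described by counts and medians. The rule was to name every Hox gene, with values for each called one, and from each list the 2 called members with the smallest adjusted p. The separate values of 1 Hox gene and 1 listed gene are not reported here, though counts and medians include them. The Hox genes and lists were chosen with earlier results of these data known.

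Positions and exon lengths are from GENCODE vM21 on GRCm38, and promoters from RefSeq on GRCm38.p6, where 22 Hox genes matched. Depth per library was 23.6 to 54.8 M counts. Alternatives were DESeq2 1.42.0, its size factors, the authors' scaling, library totals, limma-voom 3.58.1, other filters, only the groups compared, blocks by replicate number and code letter, and left-out libraries. Of 60 replicate pairs none came near sampling noise, with the lowest chi-square per gene at 2.81.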

Additional observations from a re-analysis of the deposited data

Results flagged for a closer look

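In 64 groups of 6 values (12 expressed genes and 4 summed clusters in 4 groups), 1 library lay far from the others in 7, where chance gives about 1 in 20, or 3.2. Hoxa3 was low in MuRF1 KD non-stretched replicate 6, at 2.40 CPM, with the next library at 2.75. Hoxa13 was high in control non-stretched replicate 6, at 8.84 CPM, with the next at 7.80. Hoxc4 was high in control stretched replicate 5, the shallowest library, at 0.817 CPM, with the next at 0.302. Hoxb1 was high in control non-stretched replicate 4, at 0.593 CPM, with the next at 0.313, and the summed Hoxb level was then high in the same library, at 0.689 CPM. The summed Hoxb level was also high in MuRF1 KD stretched replicate 1, at 2.02 CPM, with the next at 0.991. The summed Hoxc level was low in MuRF1 KD non-stretched replicate 6, at 0.769 CPM, with the next at 1.09. Without that library, or without control non-stretched replicate 6, no Hox call of the report was lost.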

How the results depend on the processing

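Across 13 alternative settings, 3 of them added after seeing the data, no called Hox fold change turned its direction. The calls that were lost were Hoxa3 in control cells when only the groups compared were fitted (-0.51, adjusted p = 0.0594) and Hoxa10 in the knockdown with stretch under library totals (-0.09, adjusted p = 0.258). Under the authors' normalization stretch called 2 Hox genes in control cells, with Hoxa13 added, and with only the groups compared it called 0. With no filter the knockdown without stretch called 8 Hox genes, among the added ones Hoxb8, Hoxd1 and Hoxd10, which had at most 12.0 counts in any library. Hoxb1 was added there by DESeq2 size factors, library totals, DESeq2, the authors' normalization and the fit of only the groups compared. With no filter the knockdown with stretch called 6, with Hoxb9 and Hoxd10 added. Over all genes, stretch in control cells called 566 under the authors' normalization, 377 with only the groups compared, and 813 to 2023 with 1 of 3 libraries left out, the highest without control stretched replicate 5, where the reported count was 857. The interaction called 3 genes as reported, 90 with DESeq2, 1 under the authors' normalization, 1 under library totals, 45 with the code letter as a block, 109 without control stretched replicate 5, 48 without MuRF1 KD non-stretched replicate 6 and 0 without control non-stretched replicate 6. Under library totals stretch in control cells called 403 genes higher and 222 lower, where TMM gave 368 and 489. The causes were not tested. Expressed Hox genes numbered 7 with a mean of at least 1 CPM and 7 with a minimum count of 50. The summed Hoxa level without TMM factors was 29.15 CPM in MuRF1 KD stretched, 32.33 in MuRF1 KD non-stretched and 27.52 in control non-stretched cells. With TMM these groups stood at 28.0, 30.9 and 28.8 CPM, so MuRF1 KD stretched lay below control non-stretched cells only with TMM. The control stretched level without TMM factors is not given here.

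The replicate numbers gave no clear pairing of the samples, though correlations of this kind could miss a weak one. Over 36 pairs of groups and numbers, correlations of same-numbered deviations ran from -0.0638 to 0.147, with 3 over 0.1, and 8 were best with their own number. With the replicate number as a block, Hox calls stayed at 1 and 3 for stretch in control and MuRF1 KD cells and at 4 in each knockdown comparison. The interaction then called 9 genes. Depth limits the 25 Hox genes outside the filter, whose medians were at most 7.0 counts.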

Other observations

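Hoxd10, a 5′ gene of the Hoxd cluster, lay outside the filter and was looked at after its values were seen. It had medians of 0.0 counts in MuRF1 KD stretched, 1.0 in MuRF1 KD non-stretched, 3.0 in control stretched and 5.0 in control non-stretched cells. It had 0 counts in 4 and 2 knockdown libraries and in 0 and 0 control libraries. With no filter on low counts its log2 fold changes for the knockdown were -2.47 with stretch (SE 0.766, adjusted p = 0.0106) and -1.94 without stretch (SE 0.615, adjusted p = 0.0108) by edgeR. These fitted values rest on at most 5.0 counts in any knockdown library, against 2.0 to 12.0 in control libraries.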
